A study of Mus musculus with 8 samples.

Results

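Fibroblast growth factor (FGF) signalling genes were compared between mutant and control mouse molars. The set took every row of the deposited gene table whose symbol is an FGF ligand, an FGF receptor (Fgfr1 to Fgfr4 or Fgfrl1), an FGF binding protein, a Sprouty or SPRED gene, Etv1, Etv4, Etv5 or Dusp6. It held 32 of the 17631 genes in the table. They were 11 paracrine ligands, 1 endocrine ligand, 4 intracellular FGFs, 5 receptors, 1 binding protein, 3 Sprouty genes, 3 SPRED genes, 3 ETS factors and 1 phosphatase. Of 39 gene symbols in the GENCODE M21 annotation that fit this naming, 7 (Fgf4, Fgf6, Fgf15, Fgf17, Fgf20, Fgf23 and Fgfbp1) were not analysed here.

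RNA had been sequenced from the apical part of lower first molars, the end where the root forms, of C57BL/6 mice at postnatal day 7.5. The 4 control libraries were Runx2fl/fl, with both copies of Runx2 flanked by loxP sites and no recombinase. The 4 mutant libraries were Gli1-CreERT2;Runx2fl/fl, in which a tamoxifen-inducible Cre recombinase is driven from Gli1 and recombines in Gli1-expressing cells. All animals were induced at postnatal day 3.5 with tamoxifen in corn oil, injected intraperitoneally at a dose of 1.5 mg for each 10 g of body weight. Only the mutants carried the driver, so an effect of the driver and an effect of losing Runx2 cannot be told apart. The labels do not say whether a library is 1 animal, so the p-values measure the spread between libraries only, and that spread may be technical.

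FGFs are secreted proteins that bind receptor tyrosine kinases together with heparan sulfate, and the receptors signal through the RAS-ERK cascade. Active ERK raises transcription of Sprouty genes, Dusp6 and the ETS factors Etv4 and Etv5, and Sprouty, SPRED and Dusp6 proteins in turn damp the cascade. In teeth, FGFs pass between the epithelium and the mesenchyme and control growth of both tissues. The 4 genes of the FGF11 subfamily stand apart: their proteins stay inside the cell and bind voltage-gated sodium channels.

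The table gives the authors' mean of normalised signal for each group, on a linear scale, with a p-value and an adjusted p for each gene. It holds no values per library, so neither the spread between libraries nor whether the groups overlap can be given, and the depth is unknown. Group means, fold sizes, p-values and adjusted p-values below are from the authors' deposited table, and log2 ratios of mutant over control were taken from its ratios. As the measure of error, an approximate 95% interval of the log2 ratio was worked back from each p-value, as if it came from a t statistic with 6 degrees of freedom. The authors' model is not known here, and a normal statistic moved no bound by more than 0.133 among members with a mean of at least 1. Whether signals were divided by transcript length is not given either, so levels were compared between genotypes and not between genes. As a check of the labels, Runx2 had means of 65.1 in mutant and 105.5 in control molars in the authors' deposited table (adjusted p = 0.0646). Gli1, the gene that drives the recombinase, had means of 19.9 and 38.8 (log2 ratio -0.96, the authors' adjusted p = 0.0228). For Gli1 too, an effect of the driver and an effect of losing Runx2 cannot be told apart. Molar genes were present, with the dentin gene Dspp at 7360 and 7714 and the epithelial keratin gene Krt14 at 923.5 and 973.2.

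No FGF gene passed an adjusted p of 0.05 in the authors' deposited table, where 139 of 17631 genes, or 0.788%, did so. At an unadjusted p under 0.05 there were 7 of the 32 members (21.9%), against 19.3% of all genes, so the members' share was near the background. At an adjusted p under 0.10 there were 2, Fgf1 and Fgf13, and 3.64% of all genes. Of these 7, 5 had the higher mean in the mutant (Fgf13, Fgf14, Spred1, Fgf11 and Fgf2), where 9.89% of all genes lay in that class. The other 2, Fgf1 and Spry2, had the lower mean there, where the background was 9.4%. The members' median log2 ratio was 0.04, beside 0.00327 for all genes, with 18 higher and 14 lower. A difference of at least 1.5-fold was seen for 3 members (9.38%) and for 9.46% of all genes.

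**Figure D1:**
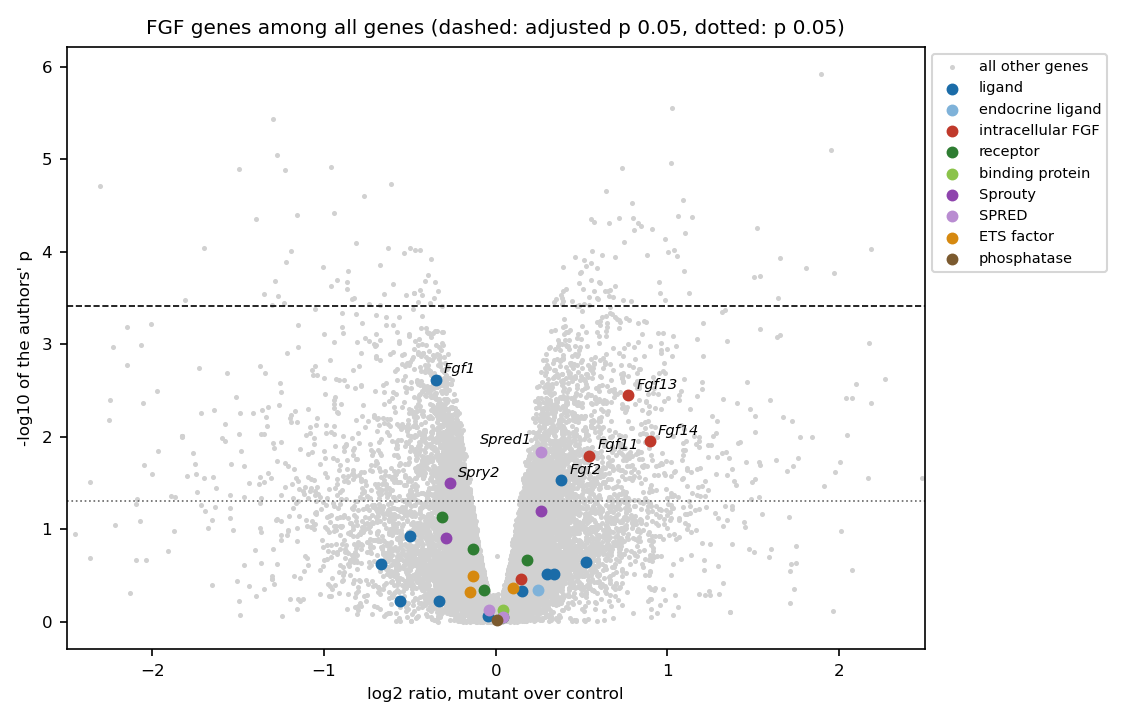
Each point is 1 gene, with the log2 ratio of mutant over control on the horizontal axis and -log10 of the authors' p on the vertical axis. FGF genes are coloured by role and other genes are grey; all 32 FGF genes lie under the dashed line of adjusted p 0.05, and the 7 named ones lie above the dotted line of p 0.05. The 21 genes with a log2 ratio beyond 2.5 in either direction are not drawn.

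All 4 intracellular FGFs had higher means in the mutant. Promoters are shown for the 3 of them with p under 0.05, which were picked by their values in these data. Fgf12 is not shown, and whether loss of Runx2 acts on any of these genes was not tested. They are RefSeq sequences on GRCm38.p6, each of 300 bases, mostly upstream of the first start that the table lists, printed 5′ to 3′ on the gene's strand. The table lists 1 start for Fgf11, 4 for Fgf13 and 1 for Fgf14, and for Fgf13 only the most upstream is printed. For Fgf11 and Fgf13 the printed start lies upstream of the gene's span in GENCODE M21, and for Fgf14 within it. Another Fgf13 promoter, chrX:59567299-59567598, lies near the start of that gene's GENCODE span and is not printed. Capitals mark the RUNX core motif TGTGGT.
Fgf11 promoter, chr11:69802231-69802530, minus strand: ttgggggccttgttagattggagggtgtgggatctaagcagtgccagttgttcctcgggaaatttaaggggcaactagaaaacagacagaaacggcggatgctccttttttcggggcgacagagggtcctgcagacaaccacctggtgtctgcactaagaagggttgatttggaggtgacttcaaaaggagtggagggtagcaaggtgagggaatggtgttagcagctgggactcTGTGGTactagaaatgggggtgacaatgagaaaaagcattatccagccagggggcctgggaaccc
Fgf13 promoter, chrX:59585523-59585822, minus strand: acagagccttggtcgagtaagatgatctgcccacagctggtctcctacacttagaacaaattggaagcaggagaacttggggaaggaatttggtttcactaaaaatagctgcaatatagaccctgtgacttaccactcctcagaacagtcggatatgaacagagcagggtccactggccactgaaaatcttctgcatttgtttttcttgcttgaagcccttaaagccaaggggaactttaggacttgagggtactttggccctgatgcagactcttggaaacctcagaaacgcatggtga
Fgf14 promoter, chr14:124192497-124192796, minus strand: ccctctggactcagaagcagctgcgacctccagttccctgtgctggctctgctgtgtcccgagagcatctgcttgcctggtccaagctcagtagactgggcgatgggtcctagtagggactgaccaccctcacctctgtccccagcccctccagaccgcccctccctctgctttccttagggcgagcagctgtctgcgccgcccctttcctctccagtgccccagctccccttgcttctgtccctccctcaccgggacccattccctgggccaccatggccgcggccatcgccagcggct

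Among these windows the RUNX core stood once, in Fgf11, 15 bases before the start. Searched on both strands, TGTGGT was found in 16.8% of the 32851 promoters of this length in the table. RefSeq promoters were matched by symbol for 26 of the 32 members, with 35 starts, and the RUNX core lay in 2 of these, at Fgf11 and Etv1. The ETS core CCGGAA lay in 5 of the 35 (Fgf12, Fgf5, Fgfr4, Fgfrl1 and Spry2) and in 14.9% of all promoters. The GLI motif GACCACCCA lay in none of the 35 and in 0.253% of all. RUNX and GLI motifs share the letters ACCAC on one strand, but neither of these exact motifs contains the other. A match is a run of letters and was not tested for binding.

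Fgf13 (chromosome X, 59062145 to 59568071, minus strand, GRCm38) encodes a protein that also binds microtubules. Its mean reached 57.6 in mutant and 33.7 in control molars in the authors' deposited table. The difference was 1.71-fold, a log2 ratio of 0.77 with an approximate interval from 0.36 to 1.18 (the authors' p = 0.00354, adjusted p = 0.0987). Fgf14 (chromosome 14, 123977907 to 124677127, minus strand) was scarce and had means of 1.61 and 0.867, with a log2 ratio of 0.90 (interval 0.29 to 1.50, the authors' adjusted p = 0.146). With a pseudocount of 1 added to both means, the log2 ratio of Fgf14 was 0.49. Fgf11 (chromosome 11, 69796068 to 69801857, minus strand) had means of 11.0 and 7.58, with a log2 ratio of 0.54 (interval 0.14 to 0.94, the authors' adjusted p = 0.167). Fgf12 differed least, with means of 5.13 and 4.64 and a log2 ratio of 0.14 (interval -0.20 to 0.49, the authors' adjusted p = 0.618).

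The 4 intracellular genes are best known from neurons, so nerve and Schwann cell markers are given beside them. Of 7 such markers 2 had a higher and 5 a lower mean in the mutant, their summed level was 94.0 in mutant and 121 in control molars, and none passed. The neuronal gene Stmn2 had means of 4.87 and 8.52 (adjusted p = 0.0698), the neuronal tubulin gene Tubb3 66.7 and 81.0, and the synaptic gene Snap25 0.792 and 0.515 in the authors' deposited table. The summed nerve marker level was therefore lower where the 4 FGF means were higher. In bulk tissue, more cells of a type and more RNA per cell cannot be told apart. Of 13 measured sodium channel subunit genes, a list chosen after values of these data were seen, 10 had higher means in mutant and none passed (median log2 ratio 0.36). Over all genes 50.6% had a higher mean in the mutant and 0.788% passed.

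**Figure D2:**
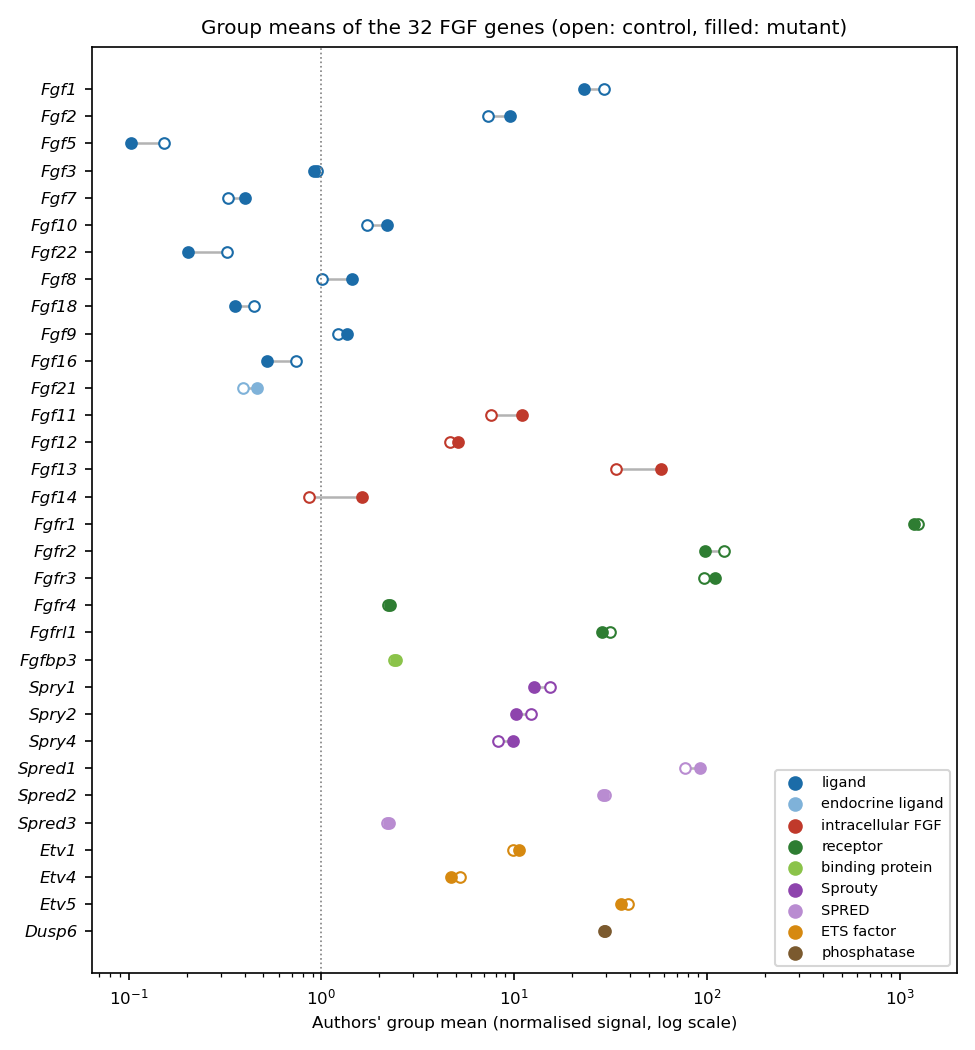
The authors' group mean of each of the 32 FGF genes on a log axis, in normalised signal, with the control as an open and the mutant as a filled circle, coloured by role. The filled circles lie to the right of the open ones for all 4 intracellular FGFs, while the pairs nearly coincide for Dusp6, Spred2 and Fgfr4; the dotted line marks a mean of 1.

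Among paracrine ligands, Fgf1 and Fgf2 made up the FGF1 subfamily and had differences of opposite sign. Fgf1 (chromosome 18, 38838673 to 38929472, minus strand), which can bind every FGF receptor, had means of 23.0 in mutant and 29.3 in control molars in the authors' deposited table. It was 1.27-fold lower, a log2 ratio of -0.35 with an interval from -0.52 to -0.18, and its p of 0.00241 was the lowest of the 32 (the authors' adjusted p = 0.0885). Fgf2 (chromosome 3, 37348346 to 37410108, plus strand), a growth factor stored in the matrix, had means of 9.53 and 7.31, with a log2 ratio of 0.38 (interval 0.05 to 0.71, the authors' adjusted p = 0.208). Whether Fgf1 and Fgf2 differ in their response was not tested. Exons of Fgf2 share 640 bases, 9.44% of its exonic length, with Nudt6 on the opposite strand. Without knowing whether strand was used in counting, reads of the 2 genes cannot be told apart there. Nudt6 itself had means of 1.50 and 1.74 (the authors' adjusted p = 0.551).

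Ligands known from tooth epithelium and mesenchyme were scarce. Fgf10, a mesenchymal ligand that maintains dental epithelial stem cells, had means of 2.18 in mutant and 1.72 in control molars in the authors' deposited table (log2 ratio 0.34, interval -0.40 to 1.07, adjusted p = 0.580). Fgf8, an epithelial signal of early tooth development, had 1.45 and 1.01 (log2 ratio 0.52, interval -0.43 to 1.47). Fgf9, another epithelial ligand, had 1.36 and 1.22 (log2 ratio 0.15, interval -0.33 to 0.64). The intervals of these 3 ligands span 0 and also hold a 1.5-fold higher level, so these libraries do not separate no difference from one of that size. For Fgf9 this rests on the assumed statistic, because with a normal one its upper bound was 0.57, below that level. Fgf3, which is co-expressed with Fgf10 in dental mesenchyme, had means of 0.919 and 0.946.

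The remaining ligands had means under 1 in both groups, where a fold is poorly defined. They were Fgf5, Fgf7, Fgf16, Fgf18, Fgf22 and the endocrine ligand Fgf21, with means between 0.103 for Fgf5 in the mutant and 0.735 for Fgf16 in the control. Together with Fgf3 they made up the 7 members under a mean of 1. Fgf5, Fgf16, Fgf18 and Fgf22 had lower and Fgf7 and Fgf21 higher means in the mutant. The lowest p among them was 0.119, for Fgf16. Exons of Fgf22 share 82 bases with Rnf126 on the opposite strand, a gene with means of 52.9 and 70.1, while Fgf22 was listed at 0.204 and 0.325.

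Means of the 5 receptor genes differed by at most 1.24-fold between the groups, for Fgfr2. The interval of Fgfr2 also holds a 1.5-fold lower level. Fgfr1 (chromosome 8, 25513654 to 25575718, plus strand), a receptor prominent in mesenchyme, had means of 1180 in mutant and 1239 in control molars in the authors' deposited table. Its log2 ratio was -0.07, with an interval from -0.29 to 0.15 (the authors' adjusted p = 0.709). Fgfr2 (chromosome 7, 130162451 to 133123350, minus strand), whose epithelial isoform receives Fgf10, had means of 98.2 and 122.2 (log2 ratio -0.32, interval -0.67 to 0.04, the authors' adjusted p = 0.304). The span printed for Fgfr2 is that of GENCODE M21, and the RefSeq promoter of the gene lies well within it, at 130266759 to 130267058. Exons of Fgfr2 in that annotation share 314 bases with Ctbp2 on the same strand. The table gives 1 value per gene, so isoforms of Fgfr2 could not be separated. Fgfr3, known as a brake on cartilage growth, had means of 110 and 96.8 (log2 ratio 0.18, interval -0.14 to 0.50, the authors' adjusted p = 0.495).

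Fgfr4 was scarce, with means of 2.27 and 2.20 (log2 ratio 0.04, interval -0.69 to 0.77). Fgfrl1, a receptor without a kinase domain, had 28.5 and 31.3 (log2 ratio -0.13, interval -0.34 to 0.07, the authors' adjusted p = 0.437). None of the 5 receptor genes had a p under 0.05, beside 19.3% of all genes, which says little for a list of 5. Their median log2 ratio was -0.07. Fgfbp3, which releases FGFs from heparan sulfate, had means of 2.44 and 2.37 in the authors' deposited table (log2 ratio 0.04, interval -0.26 to 0.35). In the same comparison epithelial markers had summed levels of 2897 in mutant and 2854 in control molars, with 4 of 8 higher, and 8 dental mesenchyme markers had 5568 and 5174, with 7 higher, 1 of them past the threshold. Osteoblast and osteocyte markers summed to 2468 and 3736, with all 6 lower and 2 past the threshold. Their part in the receptor values was not tested.

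The other marker lists are given as summed levels, which do not separate the number of cells of a type from RNA per cell. Ameloblast markers summed to 177014 in mutant and 260990 in control molars, with 5 of 6 lower and none past the threshold. Most of that sum was Amelx and Ambn (the authors' adjusted p = 0.457 and 0.503), while Mmp20 had means of 532.5 and 531. The lowest p of this list were those of Klk4 (320.6 and 510.8, the authors' adjusted p = 0.0697) and Amtn (1132 and 1664, adjusted p = 0.181). Odontoblast markers summed to 8547 and 8889. All 5 erythroid markers were lower (424.4 and 943.8 summed, 1 past the threshold). Skeletal muscle markers were near 0, with 5 of 8 measured and sums of 2.91 and 5.19. Endothelial (224.5 and 202), cartilage (177.8 and 160.4) and macrophage and neutrophil markers (198.1 and 179.6) had slightly higher sums in the mutant, and none passed. Whether these differences bear on FGF genes was not tested.

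**Figure D3:**
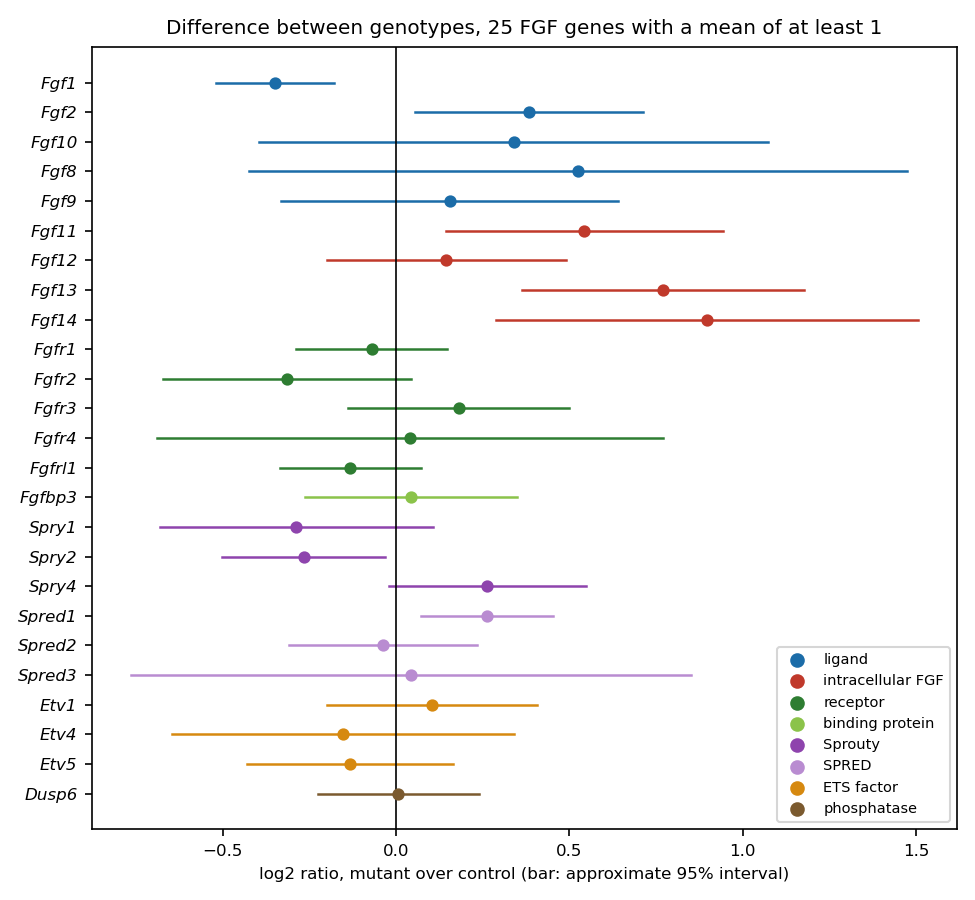
The log2 ratio of mutant over control (points) with approximate 95% intervals (bars) for the 25 FGF genes with a mean of at least 1 in either group, coloured by role. Intervals of Fgf11, Fgf13, Fgf14, Fgf2 and Spred1 lie above 0, those of Fgf1 and Spry2 lie below it, and those of all 5 receptor genes span it.

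The 10 genes that FGF signalling induces or that restrain it did not share a direction, with 5 higher and 5 lower and a median log2 ratio of -0.02. Dusp6 (chromosome 10, 99263231 to 99267489, plus strand), a phosphatase that inactivates ERK and a common readout of FGF signalling, had means of 29.5 in mutant and 29.4 in control molars in the authors' deposited table. Its log2 ratio was 0.01, with an interval from -0.23 to 0.24 (the authors' adjusted p = 0.979). The ETS factors Etv5 (35.7 and 39.1, log2 ratio -0.13, interval -0.43 to 0.16) and Etv4 (4.71 and 5.23, log2 ratio -0.15, interval -0.65 to 0.34) had slightly lower means. Etv1, of the same PEA3 subfamily, had 10.6 and 9.89 (log2 ratio 0.10, interval -0.20 to 0.41). The lowest adjusted p of these 3 factors was 0.594.

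Sprouty genes, whose products restrain the RAS-ERK cascade, had ratios of both signs. Spry2 (chromosome 14, 105891947 to 105896819, minus strand) had means of 10.2 in mutant and 12.2 in control molars in the authors' deposited table (log2 ratio -0.27, interval -0.50 to -0.03, p = 0.0317, adjusted p = 0.213). Spry1 had 12.6 and 15.4 (log2 ratio -0.29, interval -0.68 to 0.11, the authors' adjusted p = 0.379). Spry4 had 9.88 and 8.23 (log2 ratio 0.26, interval -0.02 to 0.55, the authors' adjusted p = 0.286). Exons of Spry1 share 24.4% of their bases with Gm42922, an annotated transcript of the opposite strand. In all, 9 members share exonic bases with another annotated gene, for 8 of them on the opposite strand.

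SPRED genes encode membrane-bound inhibitors that bring neurofibromin to RAS. Spred1 (chromosome 2, 117121374 to 117182279, plus strand) had means of 91.7 in mutant and 76.5 in control molars in the authors' deposited table (log2 ratio 0.26, interval 0.07 to 0.45, p = 0.0147, adjusted p = 0.163). Spred2 had 28.8 and 29.5 (log2 ratio -0.04, interval -0.31 to 0.23), and Spred3 had 2.25 and 2.19 (log2 ratio 0.04, interval -0.76 to 0.85). Of the 7 Sprouty, SPRED and Dusp6 genes, 4 were higher and 3 lower.

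Transcript GC content went with the ratios of all genes in this table, and some members follow that trend. The median log2 ratio of protein-coding genes with a mean of at least 1 ran from 0.19 in the eighth with the lowest GC to -0.12 in the eighth with the highest. Spred1 transcripts have 41.2% GC, and subtracting the trend on GC and length took its log2 ratio from 0.26 to 0.08. For Fgf2, at 42.2% GC, the ratio went from 0.38 to 0.22, and for Fgf12 from 0.14 to 0.01. Fgf13 went from 0.77 to 0.71, Fgf14 from 0.90 to 0.68, and Fgf11, at 53.0% GC, from 0.54 to 0.60. The scarce ligand Fgf8, at 62.8% GC, went from 0.52 to 0.73. Fgf1 went from -0.35 to -0.41 and Spry2 from -0.27 to -0.29. After the subtraction no member passed, with the lowest adjusted p at 0.1002 for Fgf1, and 26 of 17562 genes did (0.148%).

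**Figure D4:**
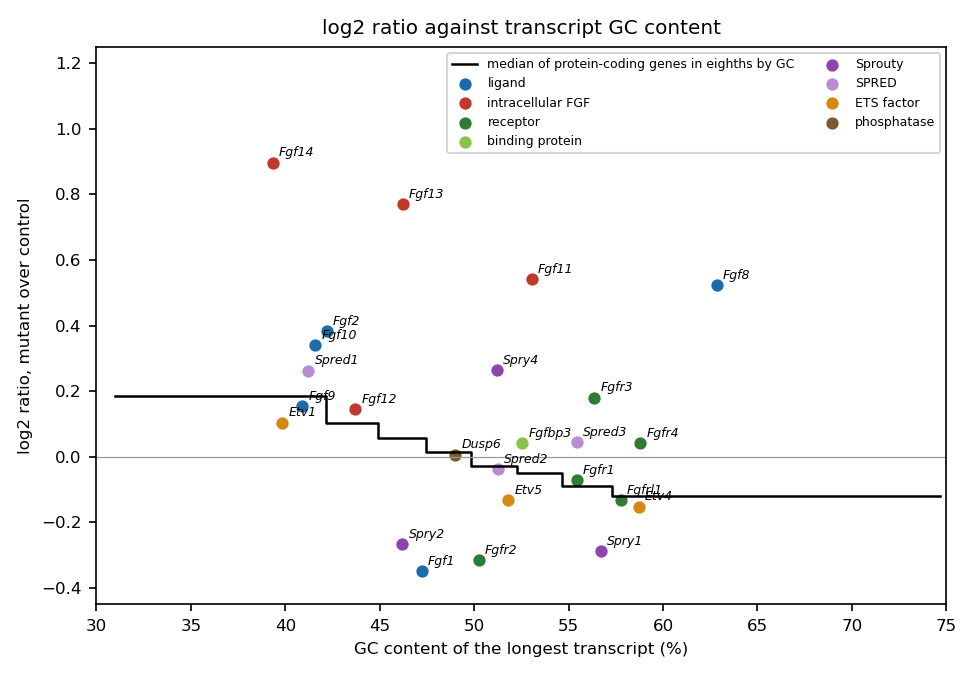
The log2 ratio of mutant over control against the GC content (%) of each gene's longest transcript for the 25 FGF genes with a mean of at least 1, coloured by role; the black steps are medians of protein-coding genes in eighths by GC. Fgf11, Fgf13, Fgf14 and the scarce ligand Fgf8 lie well above the steps and Spry2, Fgf1 and Fgfr2 below them, while Spred1 and Fgf12 lie close.

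The count of members past the threshold changed with the scaling between groups. Signals sum to less in the mutant, and when both groups were given equal totals every log2 ratio moved up by 0.137 and 6 members passed, all with higher means: Spred1, Fgf13, Fgf11, Fgf2, Fgf14 and Spry4. In that scaling 16.3% of all genes passed with higher means, 2870 higher against 86 lower, in place of 83 higher and 56 lower. The enamel gene Amelx alone had means of 112174 in mutant and 174946 in control molars in the authors' deposited table. With equal totals computed without Amelx the shift was 0.0548, no member passed and Fgf13 had an adjusted p of 0.0516, with 3.37% of all genes past the threshold.

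Among the 63 other pathway genes measured, none passed the threshold, beside 0.788% of all genes, so the lack of passing genes says little about these lists. At an unadjusted p under 0.05, 4 of 23 heparan sulfate genes were higher and 1 lower. Of 24 cascade genes 3 were higher and 2 lower, of 4 co-receptor genes 2 and 0, and of 12 other negative regulators 1 and 1. Over all genes these classes held 9.89% and 9.4%. None of the 23 genes for heparan sulfate proteoglycans and their enzymes passed (14 higher, 9 lower, median log2 ratio 0.06). The glypican genes Gpc6 (56.8 in mutant and 46.5 in control molars, adjusted p = 0.0956) and Gpc1 (422 and 577, adjusted p = 0.165) had differences of opposite sign in the authors' deposited table. Glce, an epimerase that shapes heparan sulfate chains, had 74.8 and 63.2 (the authors' adjusted p = 0.105).

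Of the co-receptor genes for klothos and FLRT proteins, 4 were measured, with 3 higher, 1 lower and none past the threshold. FLRT proteins are membrane proteins that can bind FGF receptors and enhance their signalling. Flrt2 had means of 75.8 in mutant and 48.5 in control molars in the authors' deposited table, 1.56-fold higher (log2 ratio 0.65, adjusted p = 0.104). Flrt3 had 61.7 and 47.6 (log2 ratio 0.38, the authors' adjusted p = 0.0814) and Flrt1 4.38 and 4.76 (adjusted p = 0.698). With the GC and length trend subtracted, the log2 ratios were 0.46 for Flrt2 and 0.23 for Flrt3.

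Among 24 receptor adaptor and RAS-ERK cascade genes, none passed, with 13 higher and 11 lower and a median log2 ratio of 0.02. The ERK-activated kinase gene Rps6ka3 had means of 66.5 in mutant and 53.5 in control molars in the authors' deposited table (log2 ratio 0.31, adjusted p = 0.0706), and subtracting the trend on GC and length left 0.10 of that ratio. Hras had 85.7 and 116.3 (log2 ratio -0.44, the authors' adjusted p = 0.0900), and the ERK kinase gene Map2k2 had 114 and 133 (log2 ratio -0.23, adjusted p = 0.121). Of 12 other negative regulators none passed, with 5 higher and 7 lower and a median of -0.01. Rasa1, a RAS inactivator, had a log2 ratio of 0.25 (the authors' adjusted p = 0.135), the repressor Erf -0.26 (adjusted p = 0.192) and the ubiquitin ligase gene Cbl 0.32 (adjusted p = 0.266).

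**Figure D5:**
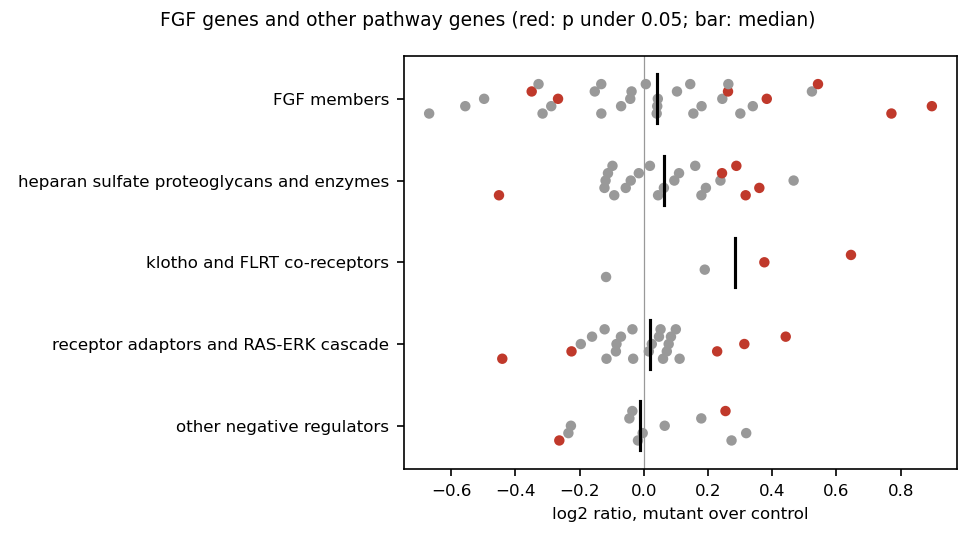
Each point is the log2 ratio of mutant over control of 1 gene, for the 32 FGF members and 4 lists of other pathway genes; red marks an unadjusted p under 0.05 and black bars are medians. Points lie on both sides of 0 in all 5 rows, and the medians lie between -0.01 and 0.06 in all but the list of klotho and FLRT genes, which has 4 genes and a median of 0.28.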

How the data were processed

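The data are 1 table for 4 control and 4 mutant mouse molar libraries. The submitters' processing notes list STAR 2.6.1d, Partek and mm10 but no role for them. How reads were counted, normalised and filtered, and which model gave the p-values, is not given in the sources used here. The authors deposited, per the file headers, 2 group means and a total, all of normalised signal. They also deposited a ratio of the means, a signed fold (a score, with nothing between -1 and 1), a p-value and a step-up adjusted p-value. For all 17631 genes the total equalled 4 times the sum of both means, so it is no read count, and the adjusted p equalled Benjamini-Hochberg adjustment (relative tolerance 1e-06). A count test planned as a fallback, and any test per library, could not be used.

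The main test was the authors' adjusted p under 0.05 over all genes. Members and lists were chosen with earlier results of these data known, so lists got no test. All members were named, with full values for those of p under 0.05 and those of highest mean per role, and the 3 genes of lowest p per further list. Alternatives dropped genes with both means under 1 or under 5, centred or rescaled the ratios, added a pseudocount of 1, or subtracted a smooth trend on GC content and log2 exonic length. That trend was fitted with mgcv 1.9.3 in R 4.3.3 on 13128 protein-coding genes with a mean of at least 1. It was fitted separately to the signed z, which gave p, and to the log2 ratio. The trend took 24.1% of the variance of the signed z and 16.9% of that of the log2 ratio. GC content and length came from GENCODE M21 on GRCm38, the assembly of mm10, by symbol for 99.6% of genes. For rescaled ratios, p was recomputed as if each log2 ratio had a normal error implied by the authors' p. Both steps were tested on simulated data. Values of 1 sodium channel subunit gene are not reported here.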

Additional observations from a re-analysis of the deposited data

How the results depend on the processing

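No paired analysis was possible because the table holds no values per library, and for the same reason no library could be left out. The count of FGF members past the threshold was 0 in the authors' deposited table, with only genes of a mean of at least 1 or of at least 5 tested, with median-centred ratios, with the GC and length trend subtracted and with equal totals without Amelx (this last chosen after the data were seen). It was 6 with equal totals, 2 (Fgf1 and Fgf13) at an adjusted p under 0.10, where 3.64% of all genes lay, and 7 at an unadjusted p under 0.05. The members' median log2 ratio, 0.04, was -0.0158 with a mean of at least 5 required, which keeps 18 members, and 0.18 with equal totals.

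Some members changed direction. With equal totals these were Etv5 (0.00496), Fgfrl1 (0.00519), Fgfr1 (0.0668), Fgf3 (0.0953) and Spred2 (0.0993), and without Amelx in the totals Fgf3 (0.0128) and Spred2 (0.0168), all as log2 ratios. With the trend subtracted they were Etv1 (-0.161), Fgf3 (0.0749) and Fgf9 (-0.0186). The causes were not tested. Over all genes, 26 passed with the trend subtracted, 17 higher and 9 lower, and 595 with equal totals without Amelx, 530 higher and 65 lower, against 139. Self-made intervals rest on the assumed statistic, and depth is unknown.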

Other observations

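The binding partners of intracellular FGFs were looked at after the values of Fgf11 to Fgf14 were seen, and are given as values only. Of 14 voltage-gated sodium channel subunit genes, 13 had a row, and 8 of these had a mean of at least 1. Scn9a, a channel of peripheral neurons, had means of 6.03 in mutant and 3.32 in control molars in the authors' deposited table (log2 ratio 0.86, p = 0.0212, adjusted p = 0.186). The accessory subunit gene Scn2b had 15.0 and 8.84 (log2 ratio 0.76, the authors' adjusted p = 0.237). With the GC and length trend subtracted the log2 ratios were 0.66 for Scn9a and 0.77 for Scn2b. None of the 13 passed, beside 0.788% of all genes, and the list was not tested.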
